A study of Drosophila melanogaster with 3 samples.

Results

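The strongest 10% of the reproducible putzig peaks comprised 636 summits at an annotated start site and 16 elsewhere, set against 5870 other rows of the list. They were chosen as the rows with the highest deposited peak signal, so their signal is a description and carries no test, and they are called members below. Putzig (pzg) is a zinc finger protein of chromatin. The 3 samples were biological replicates of 1 group, so no conditions were compared: putzig ChIP-seq on whole embryos aged 0 to 24 h, both sexes mixed, from a transgenic Drosophila melanogaster line that stably expressed putzig with GFP at its C-terminus. Whether the endogenous pzg copy was intact, and which promoter drove the fusion, is not given in the sources used here. A whole embryo pools every cell type, so a strong peak can mean many cells or strong occupancy in few, and these cannot be told apart. The free-text field describes an input control, but assay and antibody fields name putzig ChIP, and the libraries were treated as ChIP.

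Putzig is known as a partner of Trf2, a relative of the TATA-binding protein, and of Dref, which binds the DNA replication-related element (DRE), and also as a component linked to the nucleosome remodelling complex NURF. Promoters of housekeeping genes in flies typically lack a TATA box and instead carry elements such as the DRE or Motif 1, the site of the zinc finger protein M1BP. Many of these genes stand head to head, with 2 start sites firing outwards from a short shared gap. In what follows, a summit is the highest point of a peak, TSS is an annotated transcription start site (Ensembl, BDGP6), a summit is at a TSS when one lies within 250 bp, and "other rows" are the rows of the reproducible list that are not members.

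Of the members at a TSS, 43.6% had a DRE or Motif 1 within 100 bp of the summit. The shared gaps between start sites at 3 strong members with either motif in the gap are printed as examples, not as typical of all members. They are given on the plus strand of dm6, from the RefSeq genome, with matches to the DRE (TATCGATA) or to Motif 1 (GGTCACAC, or GTGTGACC on the other strand) in capitals. The Vha55 and Snx3 gap is chr3R:12627830-12628030, that of Atg8a and BTBD9 is chrX:10768339-10768536, and that of fs(1)h and mys is chrX:8061437-8061644. None of them overlaps an annotated exon.
Vha55 and Snx3: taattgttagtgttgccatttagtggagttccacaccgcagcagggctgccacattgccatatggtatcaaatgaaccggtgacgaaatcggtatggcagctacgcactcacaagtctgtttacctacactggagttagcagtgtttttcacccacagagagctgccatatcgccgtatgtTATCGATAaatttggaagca
Atg8a and BTBD9: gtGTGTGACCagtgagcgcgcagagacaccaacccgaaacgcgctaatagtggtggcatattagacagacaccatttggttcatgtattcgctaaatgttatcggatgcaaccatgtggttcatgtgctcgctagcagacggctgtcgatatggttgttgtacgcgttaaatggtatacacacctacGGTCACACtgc
fs(1)h and mys: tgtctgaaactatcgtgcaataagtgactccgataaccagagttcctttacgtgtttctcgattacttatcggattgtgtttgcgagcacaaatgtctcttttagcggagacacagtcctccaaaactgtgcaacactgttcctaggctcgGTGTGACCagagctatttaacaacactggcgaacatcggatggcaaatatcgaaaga
The Vha55 and Snx3 summit lay 134.5 bp from the centre of that DRE, outside the 100 bp used to count motifs below. The 2 Motif 1 copies of the Atg8a and BTBD9 gap lay at its opposite ends, 85.5 and 99.5 bp from the summit. The single Motif 1 copy between fs(1)h and mys lay 1.5 bp from the summit.

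The 100 bases before the start site of other members show each motif in promoters of 1 gene or of 1 side of a pair, read in the direction of transcription, with the same capitals. They were chosen from members whose upstream stretch overlaps no annotated exon: 4 with a DRE, 2 with Motif 1, 2 with both, and 2 strong ribosomal protein promoters with neither in the stretch. In the order printed they are chr3L:16647883-16647982 (minus), chr3R:32068442-32068541 (minus), chr3R:24625571-24625670 (plus), chr3R:20850416-20850515 (plus), chrX:2080510-2080609 (plus), chrX:6287991-6288090 (minus), chr3L:16051035-16051134 (minus), chr3L:9698236-9698335 (plus), chr2L:19009307-19009406 (minus) and chr3L:1668655-1668754 (minus).
Abl: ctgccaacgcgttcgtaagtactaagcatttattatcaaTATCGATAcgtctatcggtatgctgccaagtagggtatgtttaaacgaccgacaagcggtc
Map205: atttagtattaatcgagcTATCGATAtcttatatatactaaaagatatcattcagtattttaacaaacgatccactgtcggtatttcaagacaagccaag
atl: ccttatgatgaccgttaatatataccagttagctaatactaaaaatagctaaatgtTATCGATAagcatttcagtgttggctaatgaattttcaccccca
RpS30: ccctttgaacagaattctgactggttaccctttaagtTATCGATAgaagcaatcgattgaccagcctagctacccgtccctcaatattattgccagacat
Unc-76: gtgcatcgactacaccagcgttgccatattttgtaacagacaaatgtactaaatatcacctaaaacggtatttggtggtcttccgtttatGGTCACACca
Top3beta: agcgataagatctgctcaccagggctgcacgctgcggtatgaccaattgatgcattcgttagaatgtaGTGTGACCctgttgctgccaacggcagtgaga
Diap1: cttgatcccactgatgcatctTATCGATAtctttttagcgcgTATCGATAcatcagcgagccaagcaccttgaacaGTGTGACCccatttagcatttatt
Ubc4: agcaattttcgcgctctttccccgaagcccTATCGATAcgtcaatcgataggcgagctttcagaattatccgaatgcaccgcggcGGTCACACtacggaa
RpL30: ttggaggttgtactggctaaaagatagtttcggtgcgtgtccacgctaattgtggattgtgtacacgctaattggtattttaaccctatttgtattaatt
RpL23A: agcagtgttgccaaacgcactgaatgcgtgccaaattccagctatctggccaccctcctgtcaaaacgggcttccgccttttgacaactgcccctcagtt
Diap1, an inhibitor of caspases, carried 2 DREs and 1 Motif 1 in this stretch, at 21.5, 42.5 and 76.5 bp from the summit. The DRE of atl, which encodes the membrane-fusing GTPase atlastin, lay 7.5 bp from the summit, and the Motif 1 copy of Top3beta, a topoisomerase, lay 2.5 bp from it. RpL30 did have a Motif 1 match within 100 bp of its summit, outside the stretch printed.

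The peak signal of the members ran from 15079 to 3201, a ratio of 4.71, with a median of 4276 against 1088 for the other rows at a TSS. It is the authors' own value on a scale that is not named, and it only ranks peaks within a list. Signal exceeded 10000 at 13 members and 5000 at 192. The limit fell in a dense stretch of the list. Just inside it were the peaks at CG15160 with 3204 and U3-55K with 3201. Just outside were those at stck with 3199, at CG5276 and RpL24-like with 3197, and at Pcyt1 with 3197.

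Most members recurred among the strongest peaks of each replicate, and fewest did so in the weakest 25% of them. Each replicate's own list placed most members among the same number of its strongest peaks, called its leading peaks here: 614 (94.2%) in replicate 1, 609 (93.4%) in replicate 2 and 574 (88.0%) in replicate 3. In all, 515 members (79.0%) were among the leading peaks of every replicate, 115 of 2 replicates, 22 of 1 and 0 of none. The reproducible list was thresholded on the replicates' pooled peaks, so this recurrence is a description. With the members cut in order of signal into 4 groups of 163, the number in all 3 was 163, 157, 140 and 55, so that the first group was complete and the last held 33.7%. The summit moved little, by a median of 3, 2 and 5 bp in replicates 1, 2 and 3.

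**Figure D1:**
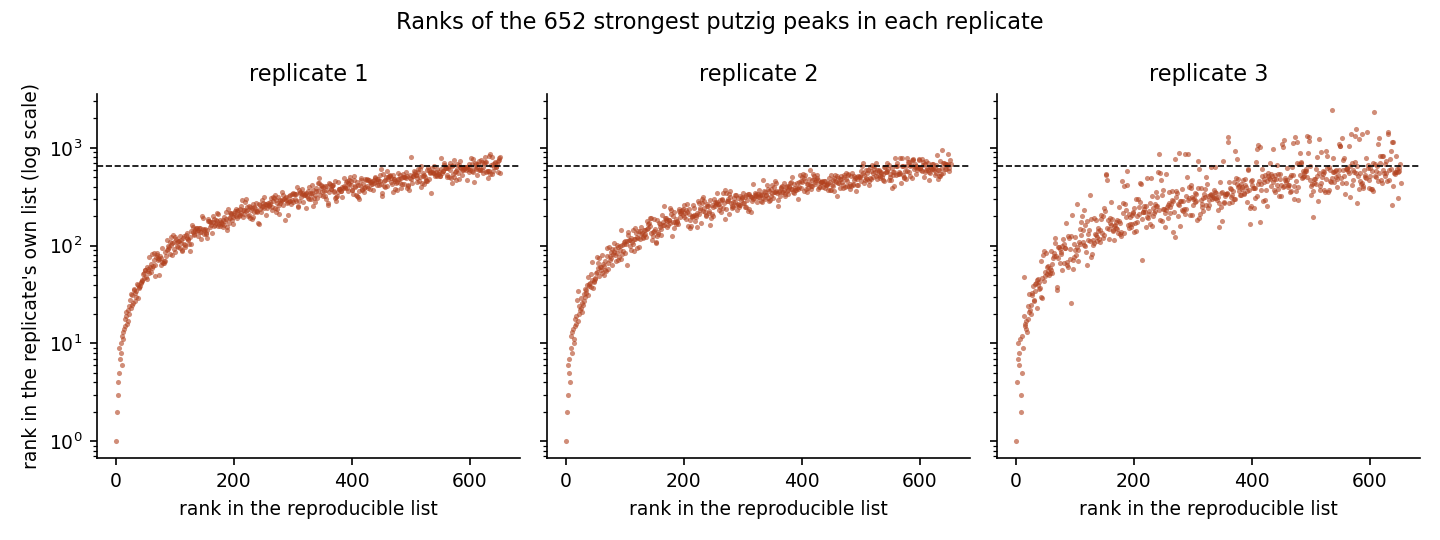
Rank of each member in each replicate's own list (y axis, log scale) against its rank in the reproducible list (x axis), with a dashed line at the limit of the leading peaks. The lowest placing is rank 860 in replicate 1, 941 in replicate 2 and 2435 in replicate 3.

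Replicate 3 placed 70 members outside its leading peaks that both others kept, against 21 left out by replicate 1 alone and 24 by replicate 2 alone. These 70 differed in makeup from the 515 members shared by all. Their windows, which reached 100 bp from the summit on either side, had a median GC content of 37.3% against 43.3%. Start sites on both strands were present at 50% of them against 30.9%, and the peak interval had a median width of 632 bp against 530 bp. The lowest placings were all in replicate 3. The peak between Mic26-27, a component of the mitochondrial cristae organising system, and CG5916 ranked 347, 548 and 2435 in replicates 1, 2 and 3, with a window GC of 30.3%, the lowest of any member at a TSS. CG12024 ranked 444, 506 and 2311, and jigr1 ranked 465, 478 and 1553. The pair CG1965 and CG1105 ranked 471, 589 and 1447, and the pair Usp5, a deubiquitinase, and BtbVII ranked 581, 481 and 1436. Replicate 3 also had narrower peaks, with a median interval of 287 bp among its leading peaks at a TSS against 502 bp in replicate 1 and 611 bp in replicate 2. The part of GC and peak width in these placings was not tested.

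The strongest members stood at genes of varied functions. The top peak, of Vha55, part of the pump that acidifies vacuoles, and Snx3, an endosomal sorting gene, had signals of 6726, 5611 and 2819 in replicates 1, 2 and 3 and ranked 1 in each. The Atg8a (autophagy) and BTBD9 peak had 5743, 5069 and 2262 and ranked 2, 2 and 4. The RpL30 peak had 5483, 4717 and 1973 and ranked 3, 3 and 10. Replicate 3 gave lower values throughout, with 543 at the end of its leading peaks against 1451 in replicate 1 and 1274 in replicate 2, so values are set side by side only by rank. Ranks 4 to 10 stood at ATPsynF, a subunit of ATP synthase, with CG3548, at the ribosomal protein gene RpL23A, at the tyrosine kinase gene Abl, at NAT1, which encodes a relative of the initiation factor eIF4G, at Galphai, which encodes a G protein alpha subunit, at mys, the beta integrin gene, with fs(1)h, which encodes the fly BET bromodomain protein, and at Sar1, the GTPase of secretory vesicle coats.

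The peak of RpL7, paired with Ripalpha, ranked 12, 13 and 5 in the replicates, and that of ATPsynC, another subunit of ATP synthase, ranked 13, 14 and 9. Lk6, which encodes a kinase of the initiation factor eIF4E, ranked 11, 10 and 19. Map205, which encodes a microtubule-associated protein, ranked 14, 11 and 48, the widest spread among the 30 strongest. Its window GC of 36.3% was also the lowest of these 30. The remaining ranks to 20 were Unc-76 with CG16903, CG9175, the deubiquitinase gene trbd with dmt, Rho1 (a GTPase that controls actin) with CG8414, CG3918 with CG42340, and NaCP60E (a sodium channel gene) with RpL41. Ranks 21 to 30 were Mapmodulin, alt with CG7655, Cyfip (a subunit of the WAVE complex that drives actin branching) with Fkbp39, RpS29, CG2924, Tlk (a kinase) with Rala (a Ras-like GTPase), smg (a repressor of maternal mRNAs) with CG5087, RpL14 with Nelf-E (a subunit of the factor that pauses RNA polymerase II), Kdm3 (a histone demethylase gene) with mRpL47 and CG8176, and Top3beta with wuho. Where a peak stands between 2 genes, the summit alone does not say which of them it serves.

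Almost every member was at a promoter. Of all members, 636 (97.5%, 95% Wilson interval 96.1 to 98.5, counting error only) had a TSS within 250 bp, against 4850 of 5870 other rows (82.6%). In the replicates' own lists the share was 97.4% ± 0.386 for the leading peaks and 82.0% ± 2.55 for the other rows (SD, n = 3). Of all reproducible rows 10% were members, and of the rows at a TSS 11.6%. The members at a TSS had their summit a median of 52 bp upstream of the nearest one, against 30 bp upstream for the other rows at a TSS. In the replicates the median position was -50.3 ± 4.04 bp for members and -28.3 ± 3.79 bp for other rows (SD, n = 3). Upstream summits made up 95.9% of members and 77.5% of other rows, and summits within 100 bp upstream made up 85.1% and 63.8%. Every replicate had the same direction. The exact two-sided sign-flip permutation test over the 3 replicates' differences gave p = 0.25, the smallest that 3 replicates allow. This design therefore cannot reach 0.05 for any measure reported here. The replicates' lists also share most of these places, so a direction common to all 3, here and below, is not independent support.

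The members were often at paired promoters. Start sites on both strands lay within 250 bp of the summit at 208 of 636 members (32.7%, 29.2 to 36.4) and 1085 of 4850 other rows (22.4%, 21.2 to 23.6). The replicates gave 32.7% ± 3.43 and 22.1% ± 0.863 (SD, n = 3), a difference of 10.6 ± 2.60 percentage points, positive in 3 of 3 (exact sign-flip p = 0.25). Of these, 203 members and 1049 other rows were head to head. The size of this difference depended on the window. It was 13.4 points with 100 bp, where 22.4% of members and 9.09% of other rows had both strands, and 1.72 points with 500 bp, where the shares were 41.3% and 39.6%.

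Among pairs with both start sites within 250 bp of the summit, the median gap between head-to-head start sites was shorter in the members. Pairs further apart were cut off by this window, and the gap was not measured with another one. Its median was 123 bp, against 202 bp in the other rows. The replicates gave 126 ± 8.76 bp and 202 ± 3.62 bp (SD, n = 3; exact sign-flip p = 0.25). Gaps of at most 100 bp made up 34% of the members' pairs and 30.5% of the other pairs, and the lower quartiles were 87 and 85 bp. Gaps of at most 150 bp made up 61.1% of the members' pairs and 41.8% of the other pairs. Gaps of at most 250 bp made up 83.7% of the members' pairs and 70.7% of the others. The Rho1 and CG8414 gap was 79 bp, the trbd and dmt gap 105 bp, and the RpL7 and Ripalpha gap 30 bp, whereas Tlk and Rala stood 372 bp apart, the longest gap of any member.

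**Figure D2:**
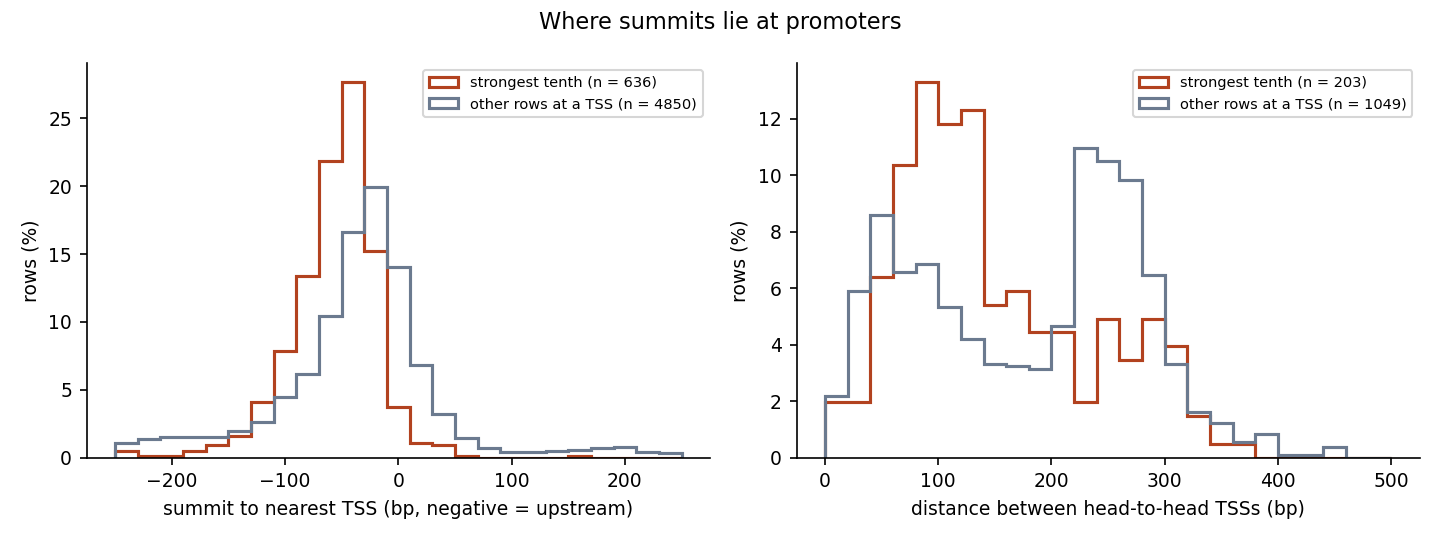
Left, distance from summit to nearest TSS (x axis, bp, negative upstream) as a percentage of rows, for the 636 members at a TSS and the 4850 other rows at a TSS. Right, distance between head-to-head start sites (x axis, bp) for 203 members and 1049 other rows. The members' summits gather around 52 bp upstream and their pairs around 123 bp apart. Longer gaps occur in both, and gaps of at most 250 bp hold 83.7% of the members' pairs and 70.7% of the other pairs.

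The members without a TSS within 250 bp were 16, of which 11 were intergenic, 4 in introns and 1 in an exon, and 8 of them had a TSS within 500 bp. The strongest, at 3R:9496698-9497153, ranked 64 with a signal of 6753 and ranks of 84, 50 and 85 in the replicates. Its nearest start site, that of RhoL, a GTPase gene, was 1583 bp away. The next ranked 110, 500 bp upstream of the start of tej (a piRNA pathway gene), with a DRE match. The others named by rank were 200, 381 bp upstream of Nepl8, then 285, 501 bp upstream of CG3505, and 292, 276 bp upstream of the ribosomal protein gene RpLP2, with a Motif 1 match and ranks of 206, 269 and 861.

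Motif 1 and the DRE were both more frequent in the members than in the other rows, though the design cannot reach significance. Within 100 bp of the summit on either strand, Motif 1 occurred at 167 of 636 members at a TSS (26.3%, 23.0 to 29.8) and at 639 of 4850 other rows at a TSS (13.2%, 12.3 to 14.2). The replicates gave 26.5% ± 0.656 and 13.7% ± 0.727 (SD, n = 3). The DRE occurred at 139 members (21.9%, 18.8 to 25.2) and 747 other rows (15.4%, 14.4 to 16.4), with 21.8% ± 1.55 and 15.4% ± 0.319 in the replicates (SD, n = 3). Both differences were positive in 3 of 3 replicates (exact sign-flip p = 0.25). Either motif was found at 43.6% of members and 27.4% of other rows, and both together at 29 members (4.56%) and 59 other rows (1.22%). Among windows of the same length at 19253 start sites of coding genes over the genome, centred 52 bp upstream, 6.79% held a DRE and 5.98% Motif 1. A match is a stretch of letters and was not tested as a binding site.

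The size of both differences moved with the choice of rows and windows. Among rows with a window GC of 38 to 46% the Motif 1 difference was 8.18 points and the DRE difference 9.56 points, against 13.1 and 6.45 points over all, so which motif differed more changed with GC. With 50 bp to each side the Motif 1 difference was 3.53 points, and for the strongest 5% of rows the DRE difference was 2.43 points, while against other rows above the list's median signal it was 3.35 points. Motif 1 lay a median of 45.5 bp from the summit in members and 29.5 bp in other rows, and 18.5 bp and 0.5 bp upstream of the TSS. The DRE lay at 30.5 bp and 27.5 bp from the summit. Motif 1 was present in 2 or more copies at 12 of the 167 members that had it (7.19%) and at 2.82% of the other rows that had it.

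The other letters searched gave both directions. CGATA, the core of the BEAF-32 insulator site that is also part of the DRE, occurred at 66.5% of members and 53.5% of other rows. CACGTG, the Myc E-box, occurred at 6.13% and 3.01%, and Motif 6 (GTATTTTT) at 9.91% and 8.58%. Motif 7 (CAGCGCTA) was rare, at 1.42% and 0.515%, and so was AGGTGGCG, the core of the CTCF insulator site, at 1.57% and 0.701%. Lower in the members were TATAAA at 14% and 27.6%, the E-box CAGCTG at 17.0% and 20.5%, the GAGA factor letters GAGAGAG at 0.943% and 3.15%, and CTTTTC, letters of the pyrimidine-rich initiator of ribosomal protein genes, at 16.7% and 18.3%. The initiator letters TCAGT occurred at 30.3% and 32.4%, and CAGGTAG, bound by the early activator Zelda, at 0.157% and 0.722%. Each of these 11 differences had 1 direction in all 3 replicates (exact sign-flip p = 0.25). TATAAA at 15 to 45 bp upstream of the TSS, where a TATA box works, occurred at 7 members (1.10%) and 90 other rows (1.86%), so most TATAAA matches lay elsewhere in the windows. Within 10 bp of the TSS, CTTTTC occurred at 7 members (1.10%) and 37 other rows (0.763%), the opposite direction to its count over the whole window. TCAGT within 10 bp of the TSS occurred at 22 members (3.46%) and 283 other rows (5.84%). Most matches to these initiator letters thus also lay elsewhere. The DRE read backwards (ATAGCTAT) occurred at 1.10% and 0.577%, and Motif 1 read backwards (CACACTGG) at 6.45% and 3.24%, but CACACTGG can overlap a Motif 1 match and is no separate control. Over all coding start sites the shares were 37.1% for CGATA, 2.84% for CACGTG, 4.94% for Motif 6, 0.410% for Motif 7, 0.431% for AGGTGGCG, 29.7% for TATAAA, 14.1% for CAGCTG, 5.80% for GAGAGAG, 19.2% for CTTTTC, 43.1% for TCAGT and 1.16% for CAGGTAG.

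**Figure D3:**
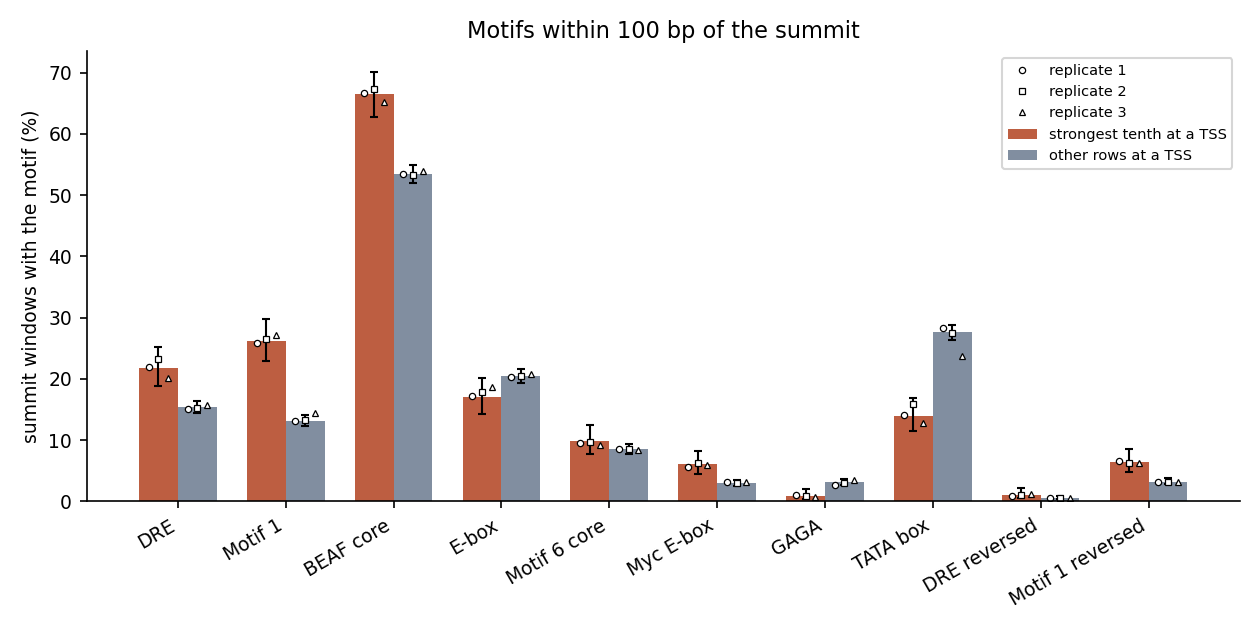
Share of windows within 100 bp of the summit that hold each motif (y axis, %), for the members at a TSS and for the other rows at a TSS, with 95% Wilson intervals as bars and the 3 replicates' own lists as open symbols. Motif 1, the DRE and the BEAF core stand higher in the members. TATAAA anywhere in the window, labelled TATA box, stands lower, though most of these matches lie away from where a TATA box works.

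Over all possible runs of 8 letters the widest differences lay at the same motifs. Of 32869 8-mers counted on both strands, which overlap one another, the 10 with the widest positive difference all shared at least 6 letters in a row with the DRE or Motif 1. GGTCACAC led with 26.3% of members and 13.2% of other rows, followed by AGTGTGAC with 21.7% and 10.9%, and ATCGATAG with 23.7% and 13.8%. CGGTCACA had 15.4% and 7.44%, CAGTGTGA 15.3% and 7.46%, CATCGATA 13.5% and 6.45%, TGGTCACA 13.5% and 6.60%, ACGGTCAC 11.2% and 5.22%, and ACATCGAT 10.1% and 4.58%. The 8-mers with the widest negative difference were rich in A and T, with AAATAAAA at 6.13% and 11.3%. The members' windows had a higher GC content, 42.8% at the median against 38.3%, and 43.1% ± 0.574 against 38.8% ± 0.862 in the replicates (SD, n = 3).

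Set against the next 10% of rows, the members differed by feature. Their share at a TSS was 97.5% against 96.5%, their share with both strands 32.7% against 32.8%, and their share with a DRE 21.9% against 21.9%. Motif 1 stood at 26.3% against 18.9%, TATAAA at 14% against 23.1%, and mean GC at 43.2% against 40.4%. Over the replicates the Motif 1 difference was 7.20 ± 1.00 points, the TATAAA difference -7.68 ± 2.44 points, and the GC difference 2.37 ± 0.332 points (SD, n = 3, each with 1 direction in 3 of 3, exact sign-flip p = 0.25). The both-strand difference was 2.16 ± 1.62 points and the difference at a TSS 1.53 ± 0.460 points, and the median summit position differed by -12.5 ± 2.29 bp (SD, n = 3, each with 1 direction in 3 of 3, exact sign-flip p = 0.25). The DRE difference was 0.821 ± 2.03 points and changed sign in replicate 3 (exact sign-flip p = 0.75). This comparison was chosen after the values were seen. Within the members, the 25% with the highest signal had both strands at 39.1% and a DRE at 19.3%, and the 25% with the lowest had 27.7% for each.

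**Figure D4:**
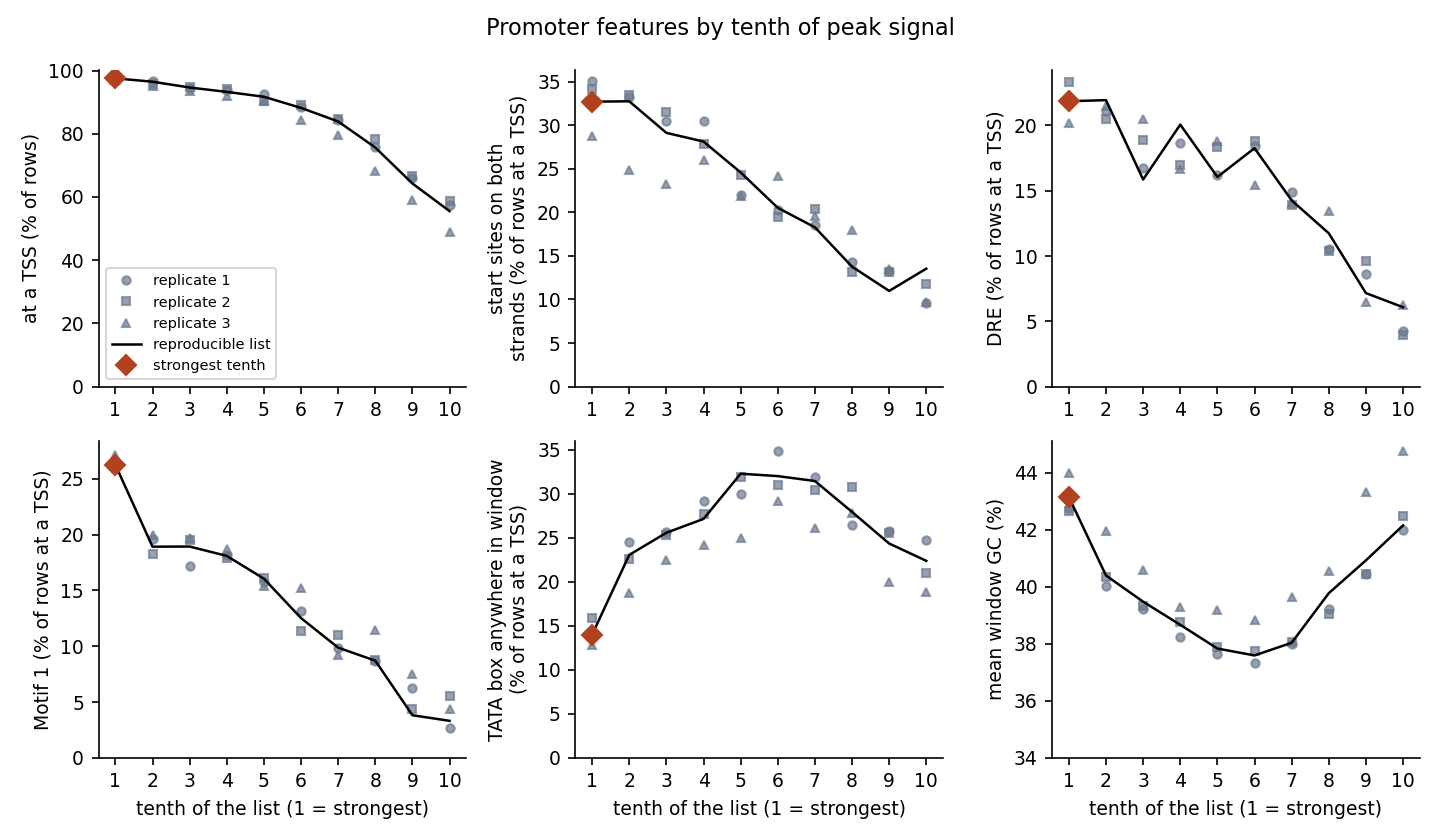
Promoter features in 10 equal groups of rows by peak signal (x axis, 1 = strongest, the members; y axis, % of rows at a TSS, or of all rows in the first panel, or mean window GC in %). The line is the reproducible list, the symbols are the 3 replicates' own lists, and the diamond marks the members. The share at a TSS is 97.5% in group 1 and 55.5% in group 10, and GC is lowest in group 6, at 37.6%.

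The members touched 854 protein-coding genes with a TSS within 250 bp of a summit, which is 6.12% of 13945 annotated and 14.4% of the 5939 with any reproducible summit, called bound here. The replicates' own leading peaks touched 872, 866 and 822, and 672 of the 854 were in all of them. A member's window held 1 gene in 413 cases, 2 in 208 and 3 or more in 15, and 425 of the 854 genes (49.8%) shared a member with another coding gene. Of the non-coding genes with any reproducible summit at a start site, 20 of 174 ncRNAs, 1 of 12 snoRNAs and 1 of 10 tRNAs were at members. The median length of the 854 genes was 3607 bp, against 2665 bp for genes bound only at other rows and 1774 bp for unbound genes. In the replicates it was 3725, 3467 and 3621 bp, against 2637, 2651 and 2702 bp. Genes at members with start sites on 1 strand had a median of 4609 bp, and those with both strands 2720 bp. Single-exon genes made up 4.68% of genes at members and 7.83% of those bound at other rows only.

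Leaving aside the list of genes known by a CG number only, 182 of the 854 genes had a place in the gene lists. The share of each list's bound genes at members is set beside 14.4% for all bound genes. The lists' sizes are small and their genes share promoters, so intervals cover counting error only, and no list was tested. Where an interval is left out below, it includes 14.4%. Cytosolic ribosomal proteins had 28 of 85 bound genes (32.9%, 23.9 to 43.5), with RpL30 at 12112, RpL23A at 11348 and RpL7 at 10822 the strongest, and 31.4 to 35.3% in the replicates. Translation initiation and elongation factors had 15 of 43 (34.9%, 22.4 to 49.8), led by NAT1 at 11310, eIF2A at 6168 and eIF2Bepsilon, a subunit of the exchange factor for eIF2, at 5783. Mitochondrial ribosomal proteins, almost all of them bound (69 of 73), had 8 at members (11.6%, 5.99 to 21.2, which includes 14.4%). They were led by mRpL47 at 8558, mRpS16 at 6926 and mRpL53 at 6870. Aminoacyl-tRNA synthetases had 3 of 30 (10%), namely GlnRS at 5401, LeuRS-m at 4679 and TrpRS at 4441.

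Chromatin and insulator genes had 13 of 47 (27.7%, 16.9 to 41.8), led by fs(1)h at 11026, trx, the founding Trithorax group gene, at 6760, and Set2, a histone methyltransferase gene, at 5498. The start site of pzg itself, head to head with CG12974, was at a member with a signal of 4604 and ranks of 205, 268 and 544. Of pzg, its partners Dref and Trf2 and the 4 NURF genes, 7 in all and all bound, 4 were at members. Among all protein-coding genes, 5939 of 13945 were bound, and 14.4% of the bound genes were at members. Caf1-55 stood at 5264, E(bx) at 3566 and Iswi at 3488, whereas Dref at 2457, Trf2 at 1771 and Nurf-38 at 1169 were at other rows. These 7 were singled out after values were seen, and whether the transgene carries a further copy of the pzg start site is not given in the sources used here. Cell cycle genes had 12 of 51 (23.5%), led by CycB at 7276, the centrosome gene cnn at 6693 and Dp, which encodes the partner of E2f1, at 6269. G proteins and Ras-like switches had 6 of 19 (31.6%, 15.4 to 54.0), led by Galphai at 11197, Rho1 at 9416 and Rala at 8727. Signalling kinases and phosphatases had 10 of 47 (21.3%), led by Abl at 11336, the Hippo kinase gene hpo at 6583 and CkIalpha at 6174. Cytoskeleton and adhesion genes had 7 of 34 (20.6%), led by mys at 11026, the actin-binding gene cib at 6055 and alphaTub84B at 5663.

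Protein turnover and energy lists had between 10% and 22.2% of their bound genes at members. The ubiquitin pathway had 6 of 27 (22.2%), led by the conjugating enzyme genes Ubc6 at 6442 and eff at 4524, with the deubiquitinase gene Uch-L5 at 4408. The proteasome had 7 of 34 (20.6%), led by Prosbeta1 at 8234, Rpn6 at 5399 and Rpn2 at 5339. Chaperones had 4 of 21 (19.0%), namely DnaJ-60 at 4672, CCT2 at 4068, Hsp110 at 3540 and Hsc70-4 at 3299. Oxidative phosphorylation had 10 of 63 (15.9%), led by ATPsynF at 11496, ATPsynC at 10482 and COX6B at 7733. Glycolysis had 2 of 11, Pglym78 at 5662 and Pgk at 3812. The vacuolar proton pump had 2 of 19, Vha55 and Vha16-1 at 3908, and mitochondrial protein import had 1 of 10, Tom40 at 3288.

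Lists of RNA, DNA and membrane machinery had between 5.56% and 18.5%. The list named RNA polymerase II, TFIID and Mediator, which also held TfIIA, TfIIE and TfIIS genes, had 12 of 65 (18.5%). It was led by TfIIA-S at 7884, Polr2F at 5455 and TfIIS at 5253. DNA replication had 8 of 45 (17.8%), led by Top3beta at 8473, Top2 at 4949 and dup, the fly Cdt1 gene, at 4801. Nuclear pore and transport genes had 5 of 32 (15.6%), led by Nup205 at 7046, Nup37 at 5125 and the exportin gene emb at 4996, but replicates ranged from 9.38 to 22.6%. Splicing had 5 of 36 (13.9%), led by snRNP-U1-70K at 5059, Sf3a1 at 4372 and SmD3 at 4364. Vesicle traffic had 17 of 115 (14.8%), led by Snx3 at 15079, Sar1 at 10967 and Snx27 at 7936, and autophagy had 1 of 18, Atg8a. Genes known by a CG number only had 199 of 1799 (11.1%, 9.69 to 12.6). Developmental and tissue-specific lists had too few bound genes to set beside 14.4%: 0 of 1 bound Hox and segmentation gene, 0 of 2 chemoreceptors and 0 of 4 cytochrome P450 genes were at members, and no cuticle gene among 122 was bound.

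**Figure D5:**
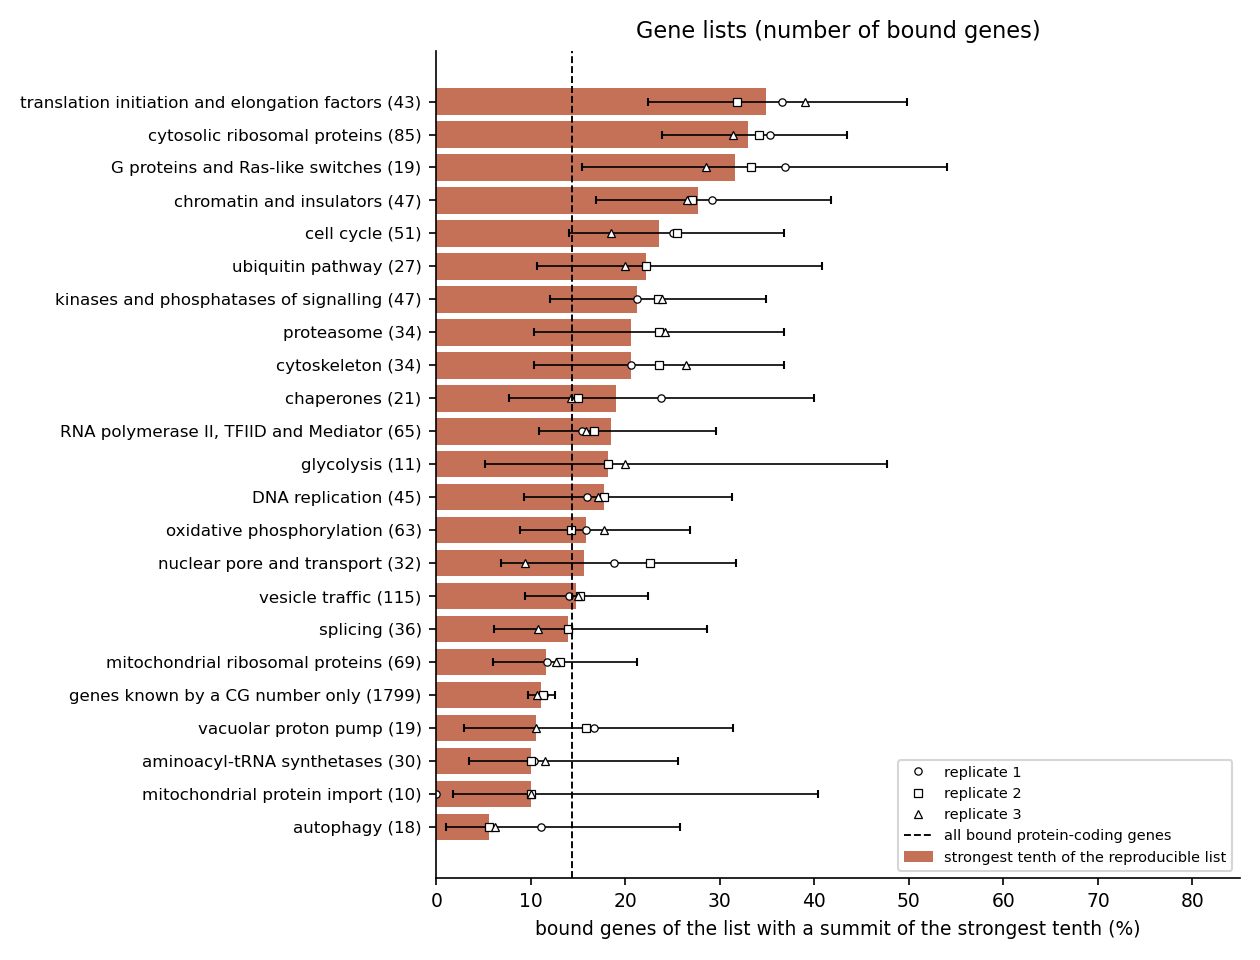
Share of each list's bound genes with a member summit (x axis, %), with 95% Wilson intervals as horizontal bars and the 3 replicates as open symbols, for lists with at least 10 bound genes. The dashed line marks 14.4% for all bound protein-coding genes. Translation factors, cytosolic ribosomal proteins and G proteins lie above 30%. Mitochondrial ribosomal proteins lie at 11.6%, with an interval that includes the line.

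The members were spread over the chromosomes unevenly. They made up 12.3% of the rows on 3R (10.7 to 14), 10.8% on 2R, 10.3% on 3L, 8.18% on X and 8.14% on 2L. On chromosome 4, 1 of 64 rows was a member (1.56%, 0.276 to 8.33), at Gyf, with a signal of 4224. Over the replicates 3R had 12.4% ± 0.533, X 8.03% ± 0.185 and chromosome 4 3.56% ± 1.36 (SD, n = 3). The members' peaks were wide and stood apart from their neighbours. Their median interval was 534 bp against 414 bp for other rows at a TSS, and the nearest other reproducible summit was a median of 3328 bp away, against 1633 bp for other rows. An interval with more than 1 summit held 46 members (7.06%) and 15.1% of other rows at a TSS. Width is read from the same signal that chose the members, so it supports nothing further.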

How the data were processed

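The authors deposited 5 peak lists: 3 replicate lists and a pooled list of 30000 rows each, and a reproducible list of 6522 rows thresholded by the irreproducible discovery rate. The deposited notes name dm6 (UCSC dm, version 6) and a control alignment shared by the replicates; chromatin was sheared to 200 to 800 bp, per the labels. Neither aligner nor peak caller is given in the sources used here. The deposited peak signal is a score on an unnamed scale. The deposited −log10 q value has a ceiling and was not used. The deposited summit offset gave each summit. Read depth is unknown, so the spread given is that of the 3 replicates, whose own 6522 strongest rows were split in the same way. Their leading peaks are largely the same places, with 515 members among those of every replicate. Sequence and start sites are fixed at each place. The SDs of such shares therefore reflect which rows each list holds, and are no independent measure of precision. The replicates were pooled to make the reproducible list and share the control, so they are not independent of it.

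The members are the 652 rows of highest signal; members and lists were chosen with earlier results of these data known. Start sites came from Ensembl release 115 (BDGP6, annotation 54), within 250 bp of the summit. Sequence came from the RefSeq genome of the same assembly, 99.5% of coding transcripts starting with ATG there. A motif counted once in a window that reached 100 bp from the summit on either side, on both strands. Shares have 95% Wilson intervals, for counting error only. Differences between members and other rows were tested by an exact two-sided sign-flip permutation over the replicates. Genes named were those at members ranked 1 to 30, the 3 strongest of each of 27 lists, the 5 strongest members away from a start site, the 5 lowest ranked in any replicate, the 3 on each side of the limit (1 of them is not reported here), and the 10 leading 8-mers. Promoters printed as sequences were chosen for the motifs in them or for lacking them. A few other genes, said to be so, were chosen after their values were seen. Python 3.11.15, numpy 2.4.6, pandas 2.3.3 and scipy 1.17.1 were used, and functions were tested on simulated data. Alternatives changed the group size, summits per interval, windows, annotation, overlap, comparison rows, GC and replicates.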

Additional observations from a re-analysis of the deposited data

How the results depend on the processing

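No paired analysis was possible because there was 1 group; differences between members and other rows were taken within each replicate. Leaving out 1 replicate kept only the members among the leading peaks of both others (536 to 585) and left the pooled ranking and the other rows as they were. The share of members among the leading peaks of every replicate, 79.0%, was 61.8% when a 50% reciprocal overlap of intervals was required, 98.5% when the leading peaks of each replicate were as many rows as 20% of the reproducible list and 100% when they were as many as the whole list; leaving out 1 replicate gave 82.2 to 89.7%. The share at a TSS, 97.5%, was 98.2% for the strongest 5% of rows, 97.0% for 20%, 86.8% with a 100 bp window, 98.8% with 500 bp and 92.3% with 1 start site per gene, the outermost; leaving out 1 replicate gave 97.6 to 97.9%. The 854 protein-coding genes were 448 with 5% of rows and 1690 with 20%, and 700 to 777 without 1 replicate. The differences between members and other rows kept their sign under each of the alternatives counted here, at 1.72 to 14.1 points for both strands (11 alternatives), 2.43 to 9.56 points for the DRE (13) and 3.53 to 15.6 points for Motif 1 (13). The comparison with the next 10% of rows is not among them. There the both-strand difference was -0.0460 points, the DRE difference -0.0842 points and the Motif 1 difference 7.34 points. The GC range and the count over all members were added after the data were seen. The cause of these shifts was not tested. Exact tests over 3 replicates cannot go below p = 0.25, and over 2 replicates 0.5. Read depth is unknown, so differences between single peaks have no counting error here.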
